A study of Drosophila melanogaster with 18 samples.

Results

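The exon records of the fourth chromosome of Drosophila melanogaster were followed in 18 RNA-seq libraries of whole pupae. An exon record is 1 annotated exon of 1 transcript with the reads counted on it. The members were all records placed on chromosome 4 (dm6 build) except those of bt, apolpp, ey, toy, onecut, PlexA, PlexB, Ephrin, Eph, unc-13, Syt7, Cadps, mGluR, RpS3A, ND-49 and ATPsynbeta and of genes named lncRNA. This left 813 of the 87508 records (0.929%) and 82 of the 17753 genes, against 1108 records and 111 genes on the whole chromosome. The member genes lay between bases 879 and 1230713 and held 1 to 28 records each (median 8.5). They were annotated as 63 protein-coding genes, 12 non-coding RNA genes, 6 pseudogenes and 1 snoRNA gene, and 620 of the records held coding sequence. Records of 1 gene often overlap and share reads, so they are not replicates of one another, and 28 of the 813 repeat the coordinates of another record of the same gene.

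All libraries came from animals of 1 genotype at 48 hr after puparium formation (APF), reared at the same temperature. They were w/(w or Y), carried P[w+mC, UAS-Gal4] over P[w+mC, UAS-GFP::RpL10A], and held 1 copy of the driver, written fru P1-Gal4/+. The driver fru P1-Gal4 is active in cells that use the P1 promoter of fruitless, and it placed a GFP-tagged ribosomal protein, RpL10A, in those cells, from which bound mRNA was recovered by translating ribosome affinity purification (TRAP). Total mRNA (the input) was taken from the same lysate before purification, and each lysate was a large pool of whole pupae sorted by sex. There were 5 male lysates (replicates 1, 2, 3, 5 and 6) and 4 female ones (replicates 2, 3, 4 and 5), each giving a TRAP and a total mRNA library. TRAP against total mRNA asks which transcripts are enriched in fru P1 cells, and male against female asks which differ by sex in either RNA. In pools of whole animals, fewer cells of a type and less RNA per cell cannot be told apart.

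The fourth chromosome is the smallest autosome of the fly, and much of it is packed as heterochromatin although its genes are transcribed. Its genes are bound along the chromosome by the protein Pof together with the heterochromatin protein HP1a, and they carry histone H3 lysine 9 methylation made by the methyltransferase egg. The chromosome is thought to descend from a former X chromosome, and Pof recalls the dosage compensation system of the X. Its genes hold several developmental regulators, among them effectors of the Wnt and Hedgehog pathways, and ligands of the TGF-beta family that act on neurons and muscle.

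The total count was 24901633 to 67491630 per library. Levels are given as reads per 1000000 (RPM), of the library total for single records. Levels of whole genes and their sums were taken over the non-overlapping records of each gene, per 1000000 reads on such records. They are not on the scale of the levels of single records. Neuronal markers (elav, nSyb, brp, Syt1 and futsch) were called higher in TRAP in both sexes, 5 of 5. Their summed level went from 386 ± 37.0 to 1133 ± 215 RPM in males (SD, n = 5) and from 548 ± 36.4 to 1240 ± 335 RPM in females (SD, n = 4). Muscle markers stayed abundant in TRAP, with a summed level of 3656 to 6304 RPM in male and 7084 to 9096 RPM in female TRAP, and they were lower in male than in female total mRNA, at 5557 to 7521 against 14120 to 17020 RPM. Testis germline markers summed to 2015 to 3357 RPM in male total mRNA, to 1118 to 5801 RPM in male TRAP and to at most 52.05 RPM in any female library. Pof differed most by sex among 11 regulators of the chromosome, at 1247 ± 55.4 RPM in male and 19.7 ± 7.43 RPM in female total mRNA (log2 fold change 6.37, edgeR FDR = 9.27e-70), while egg did not pass the test (-0.07, FDR = 0.481). The last Pof records overlap Mmp1 on the opposite strand. The part of these cell types and regulators in the results was not tested.

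The members took a larger share of the counts in TRAP than in total mRNA, and a larger share in females than in males. In male total mRNA they held 0.332% to 0.401% of the counts (mean 0.361% ± 0.0270, SD, n = 5), and in female total mRNA 0.544% to 0.620% (mean 0.593% ± 0.0357, SD, n = 4). In male TRAP the shares were 0.4996%, 0.817%, 0.685%, 0.660% and 0.843% in replicates 1, 2, 3, 5 and 6, and in female TRAP 0.959%, 0.728%, 0.902% and 0.822% in replicates 2 to 5. TRAP and total mRNA libraries did not overlap within either sex, and male and female total mRNA did not overlap. Male and female TRAP overlapped.

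**Figure D1:**
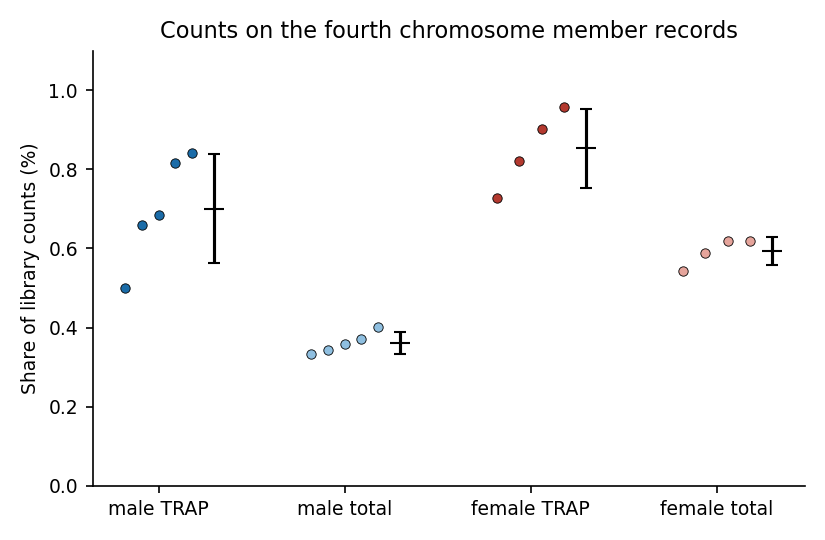
Percent of each library's counts (y axis) that fell on the 813 member records, by group (x axis), with 1 point per library and bars for the mean ± SD. Male total mRNA lies between 0.332% and 0.401%, below every other group, and male TRAP replicate 1 (0.4996%) is the lowest TRAP library.

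Each comparison was fitted over all records of the genome that reached more than 2 counts per 1000000 (CPM) in 60% or more of the compared libraries. The edgeR exact test was used, and a record was called at an FDR under 0.2. In males 250 of 287 members tested (87.1%) were called higher in TRAP, against 39.2% of all records tested, and 12 (4.18%) were called lower, against 38.3%. In females 242 of 325 (74.5%) were called higher, against 35.6%, and 10 (3.08%) lower, against 33.5%. At an unadjusted p under 0.05 in either direction the shares were 86.1% of members against 69.4% of all records in males, and 69.5% against 60.1% in females. The median log2 fold change of the members was 0.97 in males and 0.53 in females, beside -0.01 and 0.00 over all records tested. The libraries of the groups did not overlap for 193 members in males (67.2%, against 26.6% of all records) and 180 in females (55.4%, against 26.2%) with TRAP the higher. By gene, 57 of 61 genes tested in males and 54 of 63 in females had at least 1 record called higher, and in 44 and 34 genes every tested record was. These gene counts have no share over all genes beside them, and a gene with many records has more chances of a call. Shares with 1 record per gene are given below. Of the records called, 194 were higher in both sexes and 3 were lower in both.

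Records on the other chromosome arms were centred near 0 in the same fits. In males the medians ran from -0.14 on 2L to 0.21 on X, and in females from -0.07 on 2L to 0.09 on X. Of the 295 records of chromosome 4 left out by the rule, 101 were tested in males and 124 in females, with medians of 1.24 and 0.64. The shift of the members was thus shared by the tested records of the rest of their chromosome. These medians are a description over records that share libraries and, in part, reads.

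**Figure D2:**
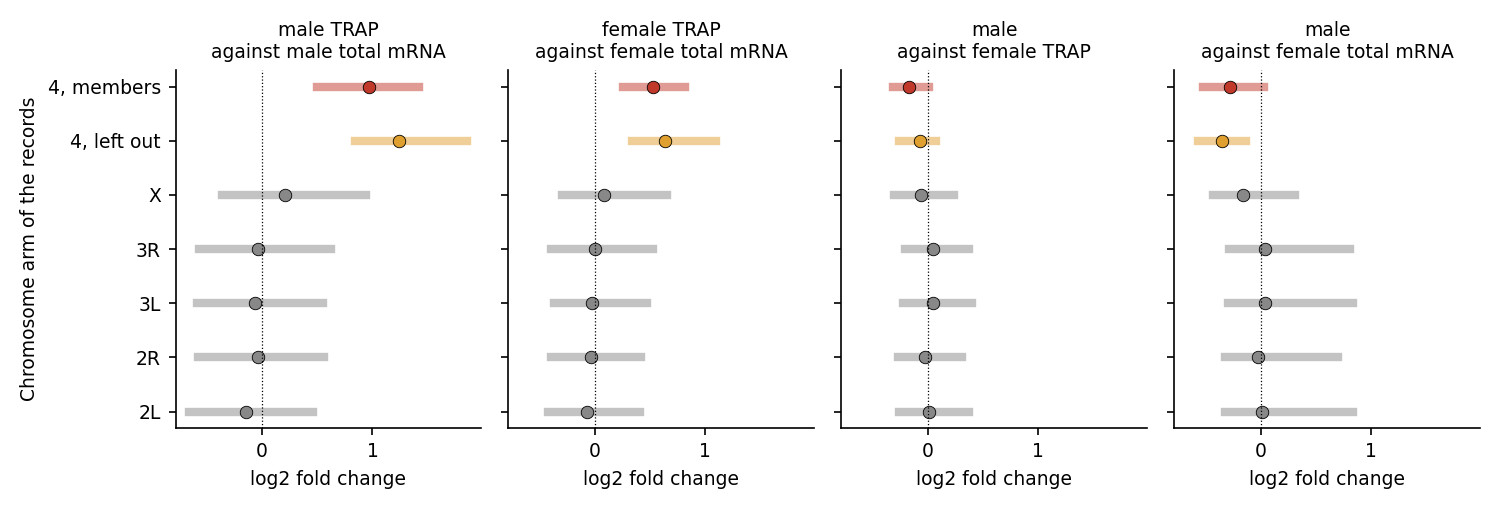
Log2 fold change (x axis) of the tested records of each chromosome arm (y axis) in the 4 pairwise comparisons, with the median as a point and the range from the first to the third quartile as a bar. The members lie to the right of the other arms in both TRAP comparisons (medians 0.97 and 0.53) and to the left of 0 in both sex comparisons (medians -0.16 and -0.27).

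Of the 15 transcription factor and chromatin genes, 38 of 48 records tested were called higher in male TRAP and 4 lower, with a median log2 fold change of 1.09, and 41 of 52 were called higher in female TRAP and 0 lower, with a median of 0.61. Pangolin (pan), the TCF protein that carries the Wnt signal into the nucleus, held the largest change of a single record on this list in each sex. Its record chr4:99406-101419, which holds coding sequence and 3′ UTR, stood at 10.5, 23.6, 14.0, 19.3 and 33.7 RPM in male TRAP against 2.31, 1.78, 1.36, 1.81 and 2.63 RPM in male total mRNA (replicates 1, 2, 3, 5 and 6), with no overlap (log2 fold change 3.50, SE 0.32, FDR = 1.05e-25). In females the same record stood at 13.4, 12.2, 26.1 and 18.8 RPM in TRAP against 3.98, 3.61, 2.71 and 2.55 RPM in total mRNA (replicates 2 to 5), again with no overlap (2.45, SE 0.29, FDR = 7e-18). All 10 pan records tested in males and all 11 tested in females were called higher, with log2 fold changes of 1.41 to 3.50 and 0.94 to 2.45.

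Taf3, a subunit of the general transcription factor TFIID, also rose in all 7 of its tested records in both sexes. Its record chr4:463055-464740 stood at 64.5, 114.7, 88.9, 90.5 and 145 RPM in male TRAP and at 24.3, 22.1, 18.6, 23.4 and 35.7 RPM in male total mRNA, with no overlap (2.18, SE 0.25, FDR = 1.24e-17). The change of this record in females was 1.13 (FDR = 1.04e-06). Per length, Taf3 was among the more abundant members, going from 37.4 ± 6.82 RPKM (RPM per kilobase of exon) in male total mRNA to 122 ± 22.8 in TRAP (SD, n = 5).

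NfI, a site-specific DNA-binding factor, stood at 38.8, 71.2, 53.5, 63.0 and 77.2 RPM in male TRAP and at 17.5, 18.4, 15.3, 17.8 and 19.9 RPM in male total mRNA over chr4:268314-270499 (1.93, SE 0.18, FDR = 7.07e-23). The libraries did not overlap. In females the same record changed by 0.75 (SE 0.24, FDR = 0.000882). Mitf, the factor that drives lysosomal genes, rose in both of its tested records in each sex, by 1.17 and 1.96 in males and by 0.65 and 1.24 in females. The Hedgehog effector ci rose by 0.98 (FDR = 4.17e-09) in males and 0.52 (FDR = 0.0162) in females over its 3′ record, chr4:47710-50462. Dati, a zinc finger protein expressed in neurons, rose by 1.32 (FDR = 1.02e-19) and 0.69 (FDR = 1.64e-06). Sox102F rose in males (0.64, FDR = 0.000311), and its female value did not pass the test (-0.10, FDR = 0.511).

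Shaven (sv), the fly Pax2, passed the filter in females only. Its last exon, chr4:1111288-1113317, stood at 24.4, 7.62, 6.05 and 5.90 RPM in female TRAP and at 2.53, 2.42, 1.67 and 1.96 RPM in female total mRNA (2.35, SE 0.48, FDR = 9.43e-07). Replicate 2 of female TRAP was above the other libraries, and without it the change was 1.62 (FDR = 1.1e-14). In males the record stood at 5.68 to 10.01 RPM in TRAP and 1.03 to 1.61 RPM in total mRNA, with no overlap and no test of this record. Summed over the gene, where both sexes were tested, sv changed by 2.77 (FDR = 1.89e-60) in males and 3.04 (FDR = 3.06e-08, with replicate 2 at 108 RPM and the others at 18.6 to 25.4 RPM) in females, beside 2.46 and 1.64 for pan. The last exon overlaps Cals on the opposite strand, and the strand setting of the counting was not given in the sources used here, so the reads of the pair cannot be told apart.

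The 13 genes of signalling moved largely in 1 direction. In males 72 of 74 records tested were called higher in TRAP and 1 lower (median 1.01), and in females 76 of 91 were called higher and 0 lower (median 0.62). Among the ligands of the TGF-beta family, myoglianin (myo) rose in all 5 tested records in both sexes, by 1.42 to 1.52 in males and 0.66 to 0.84 in females. The related ligand maverick (mav) rose by 0.88 (FDR = 7.09e-07) in males over its 3′ record, chr4:623219-624663, and by 0.21 (FDR = 0.196) in females. Activin-beta (Actbeta) had 1 record tested in males (1.01) and 2 in females (0.66 and 1.24), all called higher.

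The calcium and calmodulin dependent kinases were called higher in most records. CaMKII, which is used in synaptic plasticity, was called higher in 12 of 12 records in males (median 1.35) and 16 of 18 in females (median 0.66). CaMKI was called higher in 5 of 5 records in males (median 1.75) and 12 of 12 in females (median 1.44). Per length, CaMKI went from 14.4 ± 1.78 RPKM in male total mRNA to 44.7 ± 12.9 in male TRAP (SD, n = 5) and from 26.7 ± 0.76 to 64.9 ± 5.34 in females (SD, n = 4). The CaMKI libraries of TRAP and total mRNA did not overlap in either sex over the record chr4:451190-451454, with 9.16 to 17.3 RPM against 3.91 to 5.67 RPM in males and 22.02 to 25.8 against 7.27 to 9.51 RPM in females.

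Among the other kinases and adaptors, Dyrk3 rose in 5 of 5 records in males (1.25 to 1.46) and 6 of 6 in females (0.52 to 0.97), and the lipid kinase PIP4K in 7 of 7 in each sex (0.38 to 1.26 and 0.62 to 0.72). Asator, a kinase of the tau tubulin kinase family, rose in 11 of 11 records in males and 10 of 13 in females. The adaptor Crk had 12 of 12 records called higher in males at 0.24 to 0.53 and 7 of 12 in females at -0.04 to 0.44 over all its tested records. Arf4, a small GTPase of vesicle traffic, had 2 records called higher and 1 called lower in males and 0 of 4 called in females.

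Of the 11 genes of transport, receptors and cytoskeleton, 51 of 54 records tested were called higher in male TRAP and 1 lower (median 0.90), and 44 of 60 were called higher in female TRAP and 2 lower (median 0.47). Zyxin (Zyx), which sits at focal adhesions and in the Hippo pathway, rose in all 8 records in both sexes, by 0.92 to 1.60 and 0.88 to 1.18. PMCA, the calcium pump of the plasma membrane, was called higher in 15 of 16 records in males and 8 of 16 in females.

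The ankyrin gene Ank, whose product links membrane proteins to spectrin, rose mostly at its 3′ end. The 3′ UTR record chr4:115258-116004 stood at 4.63, 13.01, 10.3, 10.2 and 15.3 RPM in male TRAP and at 1.64, 1.31, 2.01, 1.82 and 1.98 RPM in male total mRNA (2.76, SE 0.27, FDR = 3.57e-23). In females it stood at 11.4, 7.89, 13.3 and 12.0 RPM in TRAP and at 2.89, 2.79, 2.32 and 2.73 RPM in total mRNA (2.05, SE 0.17, FDR = 2.93e-23). The libraries did not overlap in either sex. The record chr4:116686-118501, which holds the end of the coding sequence, changed by 0.54 in males and had a value of 0.04 (FDR = 0.798) in females. Coverage leaned to the 3′ end in male TRAP across the genome, with values given for records along genes.

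Gat, the GABA transporter carried by astrocyte-like glia, was the one gene on this list called lower in every record tested in females, where both records have the same coordinates. Over chr4:634410-635350 it stood at 23.7, 28.8, 25.2 and 23.7 RPM in female TRAP and at 34.8, 38.0, 29.6 and 27.9 RPM in female total mRNA (-0.36, SE 0.13, FDR = 0.0262), with overlap of 28.8 RPM in the former and 27.9 RPM in the latter. In males it was called higher (0.31, SE 0.15, FDR = 0.0818), with overlapping libraries. Summed glial markers stood at 227.5 to 251 RPM in male TRAP against 398 to 444 RPM in male total mRNA, and at 188 to 226 against 238 to 252 RPM in females. Most of the male difference was nrv2, at 152 ± 12.3 RPM in TRAP and 342 ± 12.98 RPM in total mRNA (SD, n = 5). Of the 5 glial markers 1 was called higher and 2 lower in males (median -0.04) and 4 lower in females (median -0.48), and their part in the Gat values was not tested.

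The 5 genes of RNA control and translation were shifted less. In males 28 of 35 records tested were called higher and 1 lower (median 0.66), and in females 17 of 34 were called higher and 2 lower (median 0.32). Gawky (gw), the GW182 protein of microRNA silencing, was called higher in 13 of 13 records in males (0.38 to 1.61) and 10 of 13 in females. Pur-alpha rose by 1.91 (FDR = 5.04e-24) in males and 0.98 (FDR = 1.28e-06) in females over chr4:565601-567257. The scaffold of cap-dependent translation, eIF4G1, was called higher in 7 of 9 records in males but in 1 of 9 in females, where 2 were called lower. The translational repressor 4E-T had 1 of 6 records called in each direction in males and 0 of 4 called in females. Of the 2 genes of DNA repair and protein turnover, Rad23, a ubiquitin shuttle protein, and Tdg, a thymine DNA glycosylase, 3 of 9 records were called higher in males and 4 of 9 in females. Over all records tested 39.2% were called higher in males and 35.6% in females, so the counts of these 9 records were near those shares. Under scaling by library totals alone the 9 records gave 2 higher and 3 lower in males, against 32.8% and 46.3% of all records.

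The other list, of 34 genes without an assigned role here, held some of the largest changes (53 of 60 records called higher and 4 lower in males, median 1.29, and 58 of 77 higher and 6 lower in females, median 0.56). CG11360, a protein-coding gene, stood at 38.5, 60.7, 54.1, 36.4 and 41.3 RPM in male TRAP and at 5.90, 7.07, 5.90, 7.001 and 7.97 RPM in male total mRNA over chr4:684581-689595 (2.93, SE 0.14, FDR = 2.50e-59). In female TRAP the record stood at 147, 42.4, 38.2 and 38.9 RPM and in female total mRNA at 9.80, 11.9, 10.2 and 8.08 RPM. The libraries did not overlap in either sex, and replicate 2 of female TRAP was above the rest. For its shorter record chr4:684581-687565 the female change was 2.79 (SE 0.46, FDR = 1.21e-10) with that library and 2.11 (FDR = 2.97e-49) without it.

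CG33521 and CG31997, also unnamed protein-coding genes, were the most abundant members per length. CG33521 went from 120 ± 16.8 RPKM in male total mRNA to 307 ± 102 in male TRAP (SD, n = 5), and all 16 of its tested records were called higher, by 1.05 to 2.17. In females it went from 262 ± 26.15 to 361 ± 92.75 RPKM (SD, n = 4), with 12 of 16 records called higher. CG31997 stood at 127 ± 15.2 RPKM in male total mRNA, 223 ± 56.96 in male TRAP, 374 ± 45.8 in female total mRNA and 484 ± 45.2 in female TRAP, and all 4 of its records were called higher in TRAP in both sexes.

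The antisense transcript asRNA:CR44029 rose over its whole length, chr4:879374-884752, from 3.04, 4.13, 3.18, 4.59 and 4.41 RPM in male total mRNA to 11.9, 21.0, 21.0, 14.6 and 21.8 RPM in male TRAP (2.38, SE 0.18, FDR = 9.22e-33). The female change was 1.74 (FDR = 1.69e-12), with 17.6 to 37.1 RPM against 6.37 to 8.92 RPM. It overlaps unc-13, a gene of synaptic vesicle release, on the opposite strand, and the reads of the pair cannot be told apart.

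**Figure D3:**
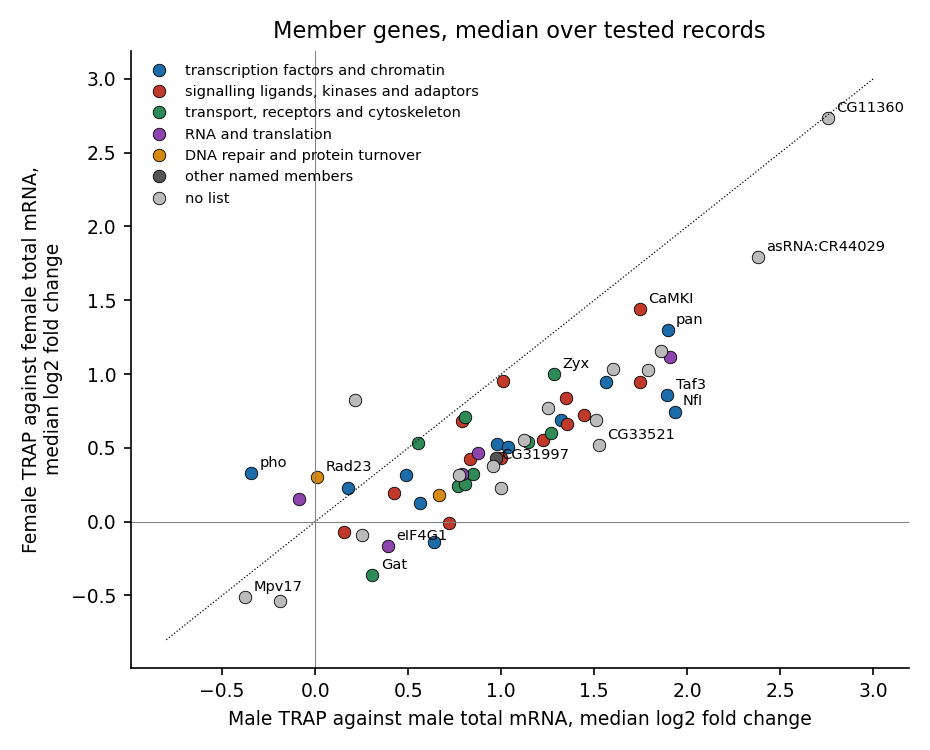
Median log2 fold change over the tested records of each of the 58 member genes tested in both sexes, male TRAP against male total mRNA on the x axis and female TRAP against female total mRNA on the y axis, coloured by role list, with a dotted line where both are equal. Most genes lie right of 0 and below the line, CG11360 has the largest medians (2.76 and 2.73), and Mpv17 and CG11076 are the 2 genes below 0 on both axes. The sex comparison of these values is tested separately in the text.

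Few members were lower in TRAP. JYalpha, a sodium and potassium pump subunit needed for male fertility, fell over the coding record chr4:1768-3851, at 3.20, 3.12, 3.93, 3.22 and 2.90 RPM in male TRAP against 6.28, 6.29, 6.55, 7.71 and 7.68 RPM in male total mRNA (-0.92, SE 0.08, FDR = 9.34e-11). The libraries did not overlap. Of its 4 other tested records 3 were called higher, the first of them, chr4:879-1079, by 0.76 (FDR = 0.0103). Pleiohomeotic (pho), which recruits Polycomb complexes to DNA, fell over chr4:1174159-1174928 in males, at 3.20, 4.57, 5.54, 4.53 and 4.13 RPM in TRAP against 6.35, 6.82, 7.75, 7.98 and 7.33 RPM in total mRNA (-0.56, SE 0.09, FDR = 8.24e-05). In females the same record was called higher (0.67, SE 0.25, FDR = 0.0258), at 6.90, 3.17, 3.52 and 3.17 RPM against 2.37, 2.67, 2.42 and 3.08 RPM, with replicate 2 of TRAP above the rest.

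The most 5′ of the tested Arf4 records, chr4:1124436-1124698, stood at 8.52 to 11.04 RPM in male TRAP and 14.03 to 17.2 RPM in male total mRNA (-0.44, FDR = 0.0022). Mpv17, known in mammals as a protein of the inner mitochondrial membrane, fell in both sexes over its single record chr4:1028675-1029361, by 0.37 on the log2 scale in males (SE 0.09, FDR = 0.00891) and by 0.51 in females (SE 0.09, FDR = 0.00228). It overlaps asRNA:CR44031 on the opposite strand. Its neighbour CG11076 stood at 39.4, 33.5, 32.4 and 39.8 RPM in female TRAP against 54.9, 50.6, 50.2 and 56.1 RPM in female total mRNA over chr4:1029711-1030777 (-0.54, SE 0.09, FDR = 5.09e-05), with no overlap. The eIF4G1 record chr4:917275-917743 fell in females by 0.50 (SE 0.11, FDR = 0.00128) and had a value of 0.04 (FDR = 0.836) in males.

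Between male and female TRAP, 20 of 340 members tested (5.88%) were called higher in males, against 23.3% of all records tested, and 55 (16.2%) were called lower, against 18%. At an unadjusted p under 0.05 in either direction the shares were 16.8% of members against 36.3% of all records. The median was -0.16 beside 0.01 over all records, and 37 of 63 genes had no called record, a count without a share over all genes. Libraries of the sexes did not overlap for 6 members with males higher (1.76%, against 15.9% of all records) and for 29 with males lower (8.53%, against 8.42%). The share of members lower in males, against that of all records, varied with the setting. It was 24.1% against 20.5% with RLE scaling, 32.4% against 24.7% with DESeq2 (110 members) and 22.5% against 13% without female TRAP replicate 3 (80 members). Without male TRAP replicate 1 it was 10.2% against 18% (36 members) and without replicate 5 it was 7.37% against 13% (26 members). Without female TRAP replicate 2 the count of higher members was 34.

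The records higher in males came mainly from transcription factors and chromatin genes, where 12 of 53 records were called higher and 0 lower. Over all records tested 23.3% were called higher and 18% lower, so the share of this list called higher was near that of all records. The 12 records lay in lgs, pan, pho and MED26. With RLE scaling the list gave 12 higher and 2 lower. Legless (lgs), the adaptor that joins beta-catenin to its coactivators in the Wnt pathway, was called higher in all 4 tested records (0.30 to 0.98). Over chr4:439448-441451 it stood at 11.8, 9.71, 8.38, 9.45 and 9.92 RPM in male and at 8.40, 5.34, 7.46 and 5.497 RPM in female TRAP (0.76, SE 0.20, FDR = 0.00316), so that the lowest male library lay just under the highest female one. Its partner in the pathway, pan, was called higher in 4 of 13 records, pho in 3 of 4, and MED26, a Mediator subunit, in 1 of 3 (0.85, SE 0.22, FDR = 0.0028).

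Outside that list, the same Arf4 record was higher in males, at 11.01, 11.04, 9.498, 10.04 and 8.52 RPM against 7.04, 6.75, 6.64 and 7.59 RPM (0.70, SE 0.12, FDR = 0.000763), with no overlap. CG32006 was higher over its last exon, chr4:152984-153538, at 5.61, 3.77, 4.72, 4.66 and 3.28 RPM in male and 3.22, 1.25, 0.852 and 1.07 RPM in female TRAP (1.65, SE 0.37, FDR = 0.000208, and 2.17 without female replicate 2). This record passed the filter only through the male libraries and female replicate 2, the other female libraries lying under 2 CPM. It was thus tested because it was high in males, which limits what the call can show. The 4E-T record chr4:952138-952461 was higher by 0.42 (SE 0.10, FDR = 0.0416).

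CG31997 was lower in male TRAP in all 4 records. Its record chr4:155027-155147 stood at 16.9, 33.6, 38.4, 19.4 and 33.5 RPM in male and 55.3, 73.5, 61.4 and 53.8 RPM in female TRAP, with no overlap (-0.97, SE 0.21, FDR = 5.58e-05). CaMKI was lower in 7 of 13 records, and chr4:451190-451454 stood at 9.16, 17.3, 16.05, 12.9 and 15.9 RPM in male and 25.8, 23.97, 22.7 and 22.02 RPM in female TRAP, with no overlap (-0.58, SE 0.11, FDR = 0.00244). PMCA was lower in 8 of 16 records (-0.52, SE 0.17, FDR = 0.0485 over chr4:349213-349424) and eIF4G1 in 5 of 9 (-0.41, SE 0.07, FDR = 0.0209 over chr4:916121-916267). CaMKII was called lower in 2 of 21 records. Of the 98 signalling records tested, 17 were lower and 2 higher in males, and with RLE scaling 33 and 2. Over all records tested 18% were lower and 23.3% higher, and with RLE scaling 20.5% and 21.7%. The share of this list called lower was thus near that of all records before RLE scaling.

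In total mRNA 42 of 273 members tested (15.4%) were called higher in males, against 38.8% of all records tested, and 161 (59.0%) were called lower, against 36.6%. The median was -0.27 beside -0.02 over all records, and it was -0.49 beside -0.23 with scaling by library totals. At an unadjusted p under 0.05 in either direction the shares were alike, 64.8% of members and 66.8% of all records. Libraries did not overlap for 34 members with males higher (12.5%, against 32.3% of all records) and 102 with males lower (37.4%, against 20.7%). On the other arms the medians ran from -0.16 on X to 0.04 on 3L and 3R. The 99 tested records of chromosome 4 left out by the rule had a median of -0.35. When any 1 of the 4 female libraries was left out the median moved to between -0.54 and -0.67 and the members lower in males to between 218 and 227. In those fits the 5 male libraries alone could satisfy the filter, and all records tested rose from 23971 to between 31083 and 31161.

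The records lower in males had their largest differences in CG31997, CG33521 and NfI. CG31997 was lower in all 4 records, with chr4:155027-155147 at 10.2, 14.1, 16.8, 16.3 and 14.8 RPM in male and 31.8, 39.8, 48.9 and 49.1 RPM in female total mRNA (-1.15, SE 0.18, FDR = 2.93e-13). CG33521 was lower in all 16 records, by 0.49 to 0.94 on the log2 scale. Its record chr4:1192357-1192694 stood at 25.9, 25.7, 22.8, 25.0 and 34.4 RPM in male and 80.8, 78.6, 59.2 and 46.4 RPM in female total mRNA (-0.89, SE 0.21, FDR = 1.07e-06). The libraries of the sexes did not overlap for either record, and the CG33521 record, part of the 3′ UTR, overlaps PIP4K on the opposite strand.

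NfI was lower over chr4:268314-270499, at 17.5, 18.4, 15.3, 17.8 and 19.9 RPM in male and 52.2, 52.3, 38.5 and 30.7 RPM in female total mRNA (-0.87, SE 0.20, FDR = 1.16e-07). PMCA was lower in 14 of 16 records, with chr4:328193-329428 at 30.3 to 42.7 RPM in male and 66.4 to 84.4 RPM in female total mRNA (-0.68, SE 0.10, FDR = 7.58e-10), and this record overlaps Rnf11 on the opposite strand. CG1674 was lower in 5 of 5 records, the one at chr4:244418-244834 by 0.67 (SE 0.13, FDR = 2.86e-06). CaMKII was lower in 12 of 12 records, by 0.48 to 0.65, eIF4G1 in 8 of 9, myo in 5 of 5 and CG31999 in 7 of 7. Gat was lower by 0.66 (FDR = 1.64e-05). Muscle markers were also lower in male than in female total mRNA, as given above, and their part in these values was not tested.

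The records higher in males were fewer and lay in 14 genes, of which pan, Cals and Zyx also held records called lower. Pho was higher in all 4 records, and chr4:1174159-1174928 stood at 6.35, 6.82, 7.75, 7.98 and 7.33 RPM in male and 2.37, 2.67, 2.42 and 3.08 RPM in female total mRNA, with no overlap (1.87, SE 0.09, FDR = 1.52e-49). Rad23 was higher in all 6 records, and chr4:308413-309079 stood at 8.01, 9.39, 10.05, 9.74 and 8.70 RPM in male and 4.22, 3.89, 5.20 and 4.41 RPM in female total mRNA, with no overlap (1.46, SE 0.08, FDR = 1.80e-38). The Arf4 record chr4:1124436-1124698 stood at 14.03, 15.2, 14.4, 17.2 and 15.4 RPM against 6.83, 6.78, 8.53 and 9.97 RPM (1.34, SE 0.14, FDR = 8.73e-25). CG31998 was higher by 1.20 over chr4:197692-201383 (SE 0.09, FDR = 2.11e-29) and Slip1, a partner of the Slowpoke potassium channel, by 1.14 over chr4:665951-666932 (SE 0.09, FDR = 1.49e-20). Hcf, a coactivator with chromatin-modifying partners, was higher in 6 of 9 records, PIP4K in 4 of 7, 4E-T in 3 of 4 and lgs in 2 of 3. Transcription factor and chromatin records as a list gave 19 higher and 13 lower of 45 (median 0.06), but 14 and 21 (median -0.15) with scaling by library totals. Over all records tested 38.8% were higher and 36.6% lower, and 31.8% and 51.7% with scaling by library totals. The list thus lay near the shares of all records with either scaling.

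**Figure D4:**
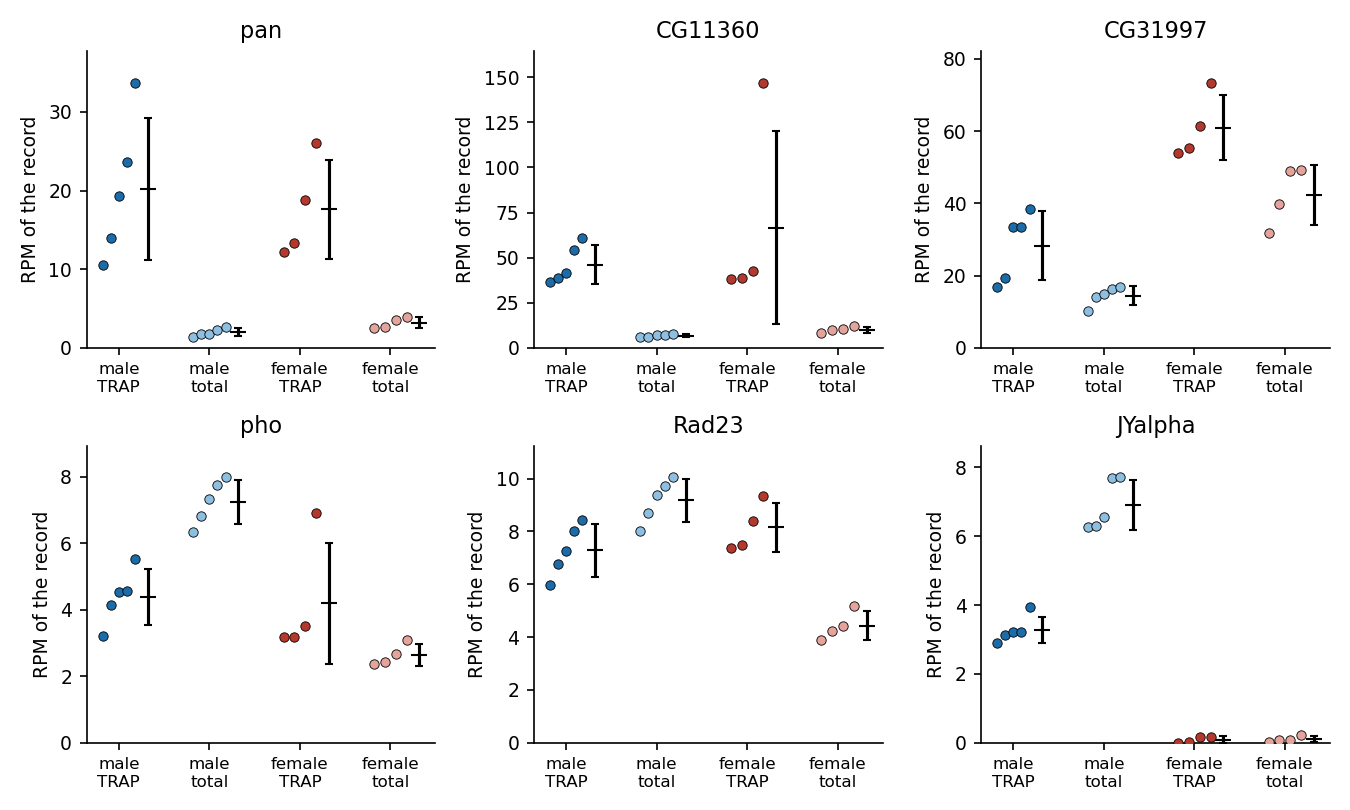
RPM (y axis, a separate scale per gene) of 1 record each of pan (chr4:99406-101419), CG11360 (684581-689595), CG31997 (155027-155147), pho (1174159-1174928), Rad23 (308413-309079) and JYalpha (1768-3851) in the 4 groups (x axis), with 1 point per library and bars for the mean ± SD. Pan and CG11360 are high in TRAP of both sexes, CG31997 is highest in females, pho and Rad23 are highest in male total mRNA, and JYalpha is at most 0.229 RPM in any female library.

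JYalpha and asRNA:CR44027 were measured almost only in males and were left untested between the sexes by the filter. JYalpha stood at 9.499 to 13.5 RPKM in male total mRNA and 9.65 to 17.3 RPKM in male TRAP, and at 0.0166 to 0.373 RPKM in female total mRNA and 0.109 to 0.403 RPKM in female TRAP. Its record chr4:1768-3851 held 0.0803, 0.0941, 0.229 and 0.0350 RPM in female total mRNA and 0.179, 0.0228, 0.176 and 0 RPM in female TRAP, where 3 counts, the floor of detection, correspond to 0.0445 to 0.120 RPM. The antisense transcript asRNA:CR44027 (chr4:395396-395954) stood at 13.3, 9.35, 10.1, 9.70 and 10.9 RPM in male and 0.0402, 0.188, 0.229 and 0.0699 RPM in female total mRNA, and at 7.37 to 19.1 RPM in male and 0.730 to 0.894 RPM in female TRAP. It overlaps dati on the opposite strand. CG32006 stood at 7.90 to 10.7 RPKM in male and 0.799 to 1.02 RPKM in female total mRNA, but its TRAP libraries overlapped, at 5.245 to 8.68 RPKM in males and 8.01, 2.91, 1.95 and 2.35 RPKM in females, where replicate 2 lay within the male range. Of the 7 testis germline markers, 4 of the 5 tested between the sexes were called higher in males in both RNAs, aly and can were untested, and vas did not pass (0.06, FDR = 0.89 in TRAP and -0.07, FDR = 0.757 in total mRNA). The part of these markers in the levels was not tested.

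The difference between the sexes in TRAP enrichment (male TRAP over male total mRNA, divided by the same ratio in females) was fitted over all 18 libraries together, by a quasi-likelihood F test of edgeR on the interaction of sex and RNA. Of 370 members tested 267 (72.2%) were called higher, against 47.5% of all records tested, and 17 (4.59%) lower, against 14.9%. At an unadjusted p under 0.05 in either direction the shares were 64.9% of members and 51.6% of all records. The median was 0.63, but the median over all records was 0.44, which leaves 0.20. With RLE scaling the counts were 97 higher and 23 lower and the medians 0.26 and 0.07. Without male replicate 1, the lysate with the lowest TRAP share, they were 152 and 23 with medians of 0.33 and 0.07. The count of calls thus depended on scaling and on 1 lysate, while the distance between members and all records was 0.19 to 0.26 in these fits and lowest, at 0.09, without female replicate 3.

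The records with the smallest p-values and a larger enrichment in males lay in eIF4G1, CaMKII and dati. The large eIF4G1 exon chr4:918903-921199 stood at 70.9, 81.5, 64.4, 77.8 and 73.6 RPM in male TRAP and 31.5, 32.1, 26.8, 29.2 and 38.5 RPM in male total mRNA (1.39), and at 78.7, 60.7, 80.8 and 75.1 RPM in female TRAP and 61.0, 62.3, 51.5 and 48.0 RPM in female total mRNA (0.41). The male groups did not overlap and the female groups did, and the interaction was 1.13 (SE 0.20, FDR = 0.000822). CaMKII over chr4:1037155-1037422 changed by 1.36 in males and 0.48 in females (interaction 1.01, SE 0.18, FDR = 0.00128), and dati over chr4:375640-376631 by 1.32 and 0.69 (0.77, SE 0.13, FDR = 0.00147). Pan gave 1.18 (FDR = 0.0331) over chr4:99406-101419, NfI 1.33 (FDR = 0.00184) and Gat 0.82 (FDR = 0.00782).

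The 17 records with a larger enrichment in females lay in 9 genes, and the smallest p-values belonged to Rad23, CG32006 and pho. Rad23 over chr4:308413-309079 stood at 5.96, 8.02, 8.45, 7.24 and 6.76 RPM in male and 9.36, 7.48, 7.37 and 8.40 RPM in female TRAP, so that its enrichment was -0.16 (FDR = 0.209) in males and 0.89 (FDR = 5.88e-08) in females (interaction -0.91, SE 0.11, FDR = 0.000412). CG32006 over chr4:152439-152921 gave an interaction of -3.28 (SE 0.37, FDR = 0.000711), resting on female total mRNA at 0.120, 0.314, 0.131 and 0.105 RPM and female TRAP at 2.55, 0.639, 0.617 and 0.726 RPM, all near the floor of detection in the former. The male values of this record were 1.498 to 2.72 RPM in TRAP and 3.05 to 4.13 RPM in total mRNA, with no overlap. It entered the test through the male libraries only, where its level was high, which limits what the call can show. The pho record gave -1.09 (SE 0.25, FDR = 0.00451), with the sexes moving in opposite directions as described above, and -0.73 (FDR = 0.00868) without female replicate 2.

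Within genes, the sex difference in total mRNA ran along the transcript. From the 5′ to the 3′ end the log2 fold change of pho went 1.87, 1.69, 1.54 and 0.74, and that of Arf4 went 1.34, 0.90, 0.19 and 0.05. Over the 32 member genes with at least 3 tested records apart from one another, the 5′ record minus the 3′ record had a median of 0.35, above 0 in 29 genes. Over all 2141 such genes of the genome the median was 0.34, above 0 in 1810 genes. The ratio of per-base coverage of the 5′ to the 3′ record, on the log2 scale and as the median over 1805 genes, was -1.79 to -1.33 in male and -2.24 to -1.97 in female total mRNA, with no overlap. It was -1.91 ± 0.215 (SD, n = 5) in male TRAP and -1.97 ± 0.0759 (SD, n = 4) in female TRAP. Within each of the 5 male lysates the ratio was lower in TRAP than in total mRNA. In male TRAP against male total mRNA the 5′ record minus the 3′ record had a median of -0.39 in the members, above 0 in 10 of 33 genes, and of -0.50 over all 2780 genes, above 0 in 749. In females these medians were -0.03 and 0.16. The coverage gradient of the libraries thus moved with sex in total mRNA and with the RNA in males, and its part in the members' values was not tested.

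With only the 3′-most tested record of each gene, 56 of 61 member genes were called higher in male TRAP (91.8%, against 40.3% of all genes) and 50 of 63 in female TRAP (79.4%, against 29.4%), with medians of 1.04 and 0.57. In total mRNA 41 of 58 were lower in males (70.7%, against 44.3%) and 5 higher, with a median of -0.31. In TRAP 4 of 63 were higher in males (6.35%, against 23.4%) and 6 lower (9.52%, against 20.3%), with a median of -0.11.

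**Figure D5:**
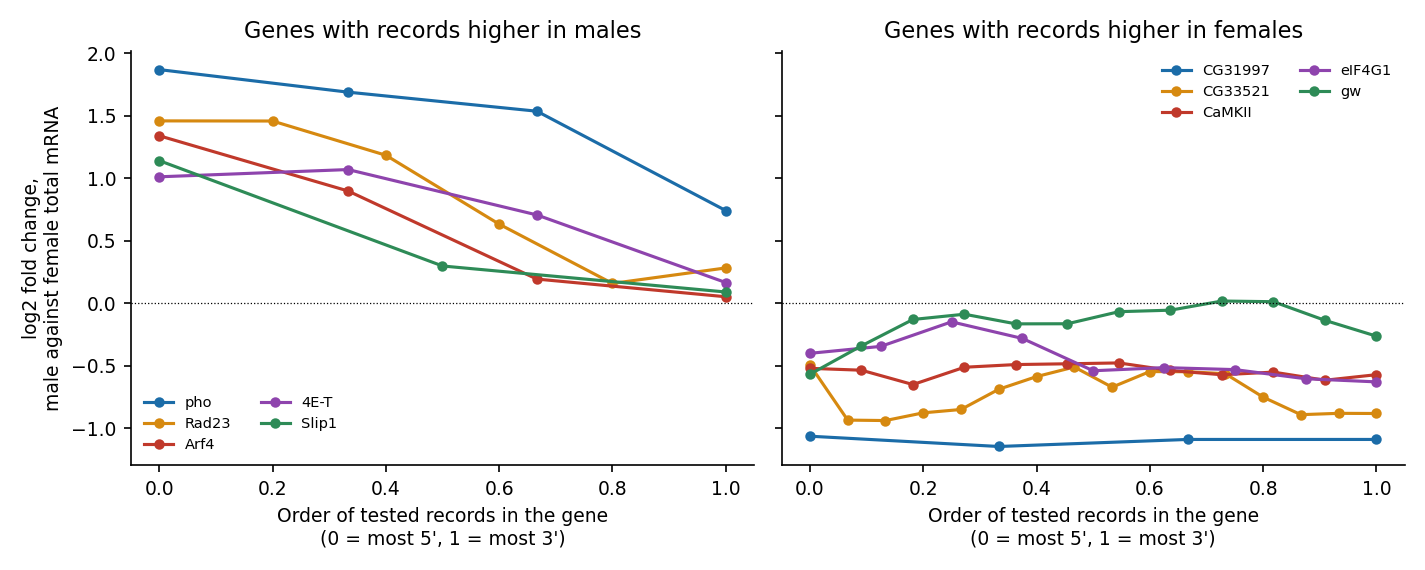
Log2 fold change of male against female total mRNA (y axis) of the tested records of 10 member genes, ordered from the most 5′ (0) to the most 3′ (1) on the x axis. In the left panel pho, Rad23, Arf4, 4E-T and Slip1 run from 1.01 or more at the 5′ end to 0.74 or less at the 3′ end, and in the right panel CG31997, CG33521, CaMKII, eIF4G1 and gw lie below or near 0 along their length, with CG31997 between -1.15 and -1.06.

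Exon usage, tested within each gene with diffSpliceDGE and called at a gene FDR under 0.2, was found at nearly the rate of all genes in the first 3 comparisons given here and below it between the sexes in TRAP. In males 28 of 48 member genes changed usage between TRAP and total mRNA (58.3%, against 57.3% of all genes tested), in females 21 of 51 (41.2%, against 41.8%), and between the sexes 19 of 46 in total mRNA (41.3%, against 44.7%) and 1 of 51 in TRAP (1.96%, against 9.17%). In males the smallest gene-level FDR values belonged to Asator (3.77e-14), PMCA (9.74e-13) and eIF4G1 (5.84e-10). The 3′ record of Asator, chr4:469409-472520, stood at 34.7 to 66.0 RPM in male TRAP and 12.6 to 15.6 RPM in male total mRNA (log2 fold change 2.03), whereas its 5′ coding record chr4:481209-481704 stood at 4.63 to 7.78 and 4.65 to 6.02 RPM (0.38). The 3′ Asator record overlaps CG33941 on the opposite strand. In PMCA the most 3′ record chr4:328193-329428 rose by 1.67, and another record with 3′ UTR, chr4:331398-332002, by 0.39. Male TRAP leaned to the 3′ end over all genes, as given above.

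In eIF4G1 the exon chr4:918903-921199 rose by 1.39, while its neighbours chr4:918324-918481 and chr4:917275-917743 had values of 0.04 (FDR = 0.914) and 0.04 (FDR = 0.836). In female TRAP against total mRNA the smallest FDR values belonged to PMCA (7.28e-09), Rad23 (1.67e-08) and Asator (1.34e-05), and in total mRNA between the sexes to Rad23 (5.83e-15), Slip1 (4.57e-08) and Hcf (1.02e-07). Rad23 went from 1.46 at chr4:308413-309079 to 0.16 (FDR = 0.130) at its 3′ record chr4:310079-310822, Slip1 from 1.14 to 0.09 (FDR = 0.409), and Hcf from 0.66 at chr4:365674-366762 to -0.04 (FDR = 0.767) at the 3′ record chr4:372250-374973. These orders followed the 5′ to 3′ gradient given above. In TRAP the 1 gene called was MED26 (FDR = 0.108), with 0.85 at chr4:783302-783937 and 0.19 (FDR = 0.472) at its 3′ record.

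Of the 813 members, 354 records of 66 genes entered at least 1 pairwise comparison and 459 records entered none, so the counts above describe the records that were expressed. The 16 genes with no tested record were 3 protein-coding genes (fd102C, a forkhead factor, fuss, of the Ski and Sno family, and Kif3C, a kinesin), with highest record values of 1.00, 0.734 and 1.32 RPM, and 13 non-coding genes and pseudogenes, of which asRNA:CR43425 was highest at 1.99 RPM. No record of these genes was above 2 RPM in any library. CR33797 and mir-9385 held 0 counts in all 18 libraries, where the floor of 3 counts corresponds to 0.0445 to 0.120 RPM. These values cover counting error only.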

How the data were processed

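Poly(A)-selected RNA from TRAP and total mRNA fractions of the same lysates was sequenced from directional libraries, as single-end reads. The authors aligned the reads to dm6 with STAR 2.7.2a and deposited per-library counts of uniquely mapped reads on each exon record, made with featureCounts and not normalized. The submitters' processing notes also name SAMtools 1.2. The strand setting and the annotation release were not given in the sources used here, so reads of genes that overlap on opposite strands cannot be told apart. The deposited table of RPM values was not used. All 18 libraries were assigned to groups from their titles. RPM of a record is its count divided by the library total. RPM of a gene, and sums over genes, used only records of a gene that do not overlap, divided by the library total of such records. RPKM divides this by the length of those records. Levels of genes are therefore not on the scale of levels of records. In male total mRNA, asRNA:CR44027, which has 1 record, had a mean of 10.7 RPM as a record and 15.3 RPM as a gene. Libraries held 24901633 to 67491630 counts, so that 3 counts correspond to 0.0445 to 0.120 RPM, which covers counting error only. RPM and RPKM means are given ± SD.

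Analyses used R 4.3.3, edgeR 4.0.16, DESeq2 1.42.0 and limma 3.58.1. Pairwise comparisons used the edgeR exact test with TMM scaling, on records above 2 CPM in 60% or more of the compared libraries, with Benjamini-Hochberg adjustment over all records and a threshold of 0.2 after the methods of the study. The SE of a log2 fold change comes from the spread of log2(CPM + 0.5) between libraries, and non-overlap in counts of records was judged on normalized CPM. The sex difference in enrichment used the quasi-likelihood F test on records that passed in at least 1 group, and exon usage used diffSpliceDGE. Library pools were the replicates. The design is paired between TRAP and total mRNA, since same-numbered libraries come from 1 lysate: deviations from the group means of same-numbered libraries correlated at 0.61, 0.35, 0.59, 0.12 and 0.34 in males and 0.16, -0.07, 0.05 and 0.28 in females. Sexes share replicate numbers only. On counts simulated from the same libraries the pairwise fits recovered 93.14% to 97.14% of records changed 2-fold and 100% of those changed 4-fold, and the interaction, run on 33316 records, 64.18% and 100%. The simulation gave all records the same dispersion, changed few of them and held no outlying library. Recovery in the data, where many records were called, may therefore be lower.

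The members, the role lists and the marker lists were chosen with earlier results of these data known. The lists of 15 transcription factor and chromatin, 13 signalling, 11 transport, receptor and cytoskeleton, 5 RNA and translation and 2 DNA repair genes were filled from member symbols, and Taf3, mav, CaMKI, Arf4, Rnf11, PMCA and dpr7 were added after the symbols were seen. JYalpha and yellow-h formed a further list, of which 5 of 7 records were higher and 1 lower in male TRAP and 2 of 2 higher in female TRAP. Marker lists covered neurons, glia, muscle, testis germline, Y-linked genes and the female germline. Y-linked genes summed to 57.6 ± 5.80 RPM in male and 0.525 ± 0.389 RPM in female total mRNA (SD, n = 5 and 4), and the 2 female germline genes found, piwi and aub, to 3.48 ± 0.354 and 4.77 ± 0.734 RPM. The named genes are those of the lists, the 5 genes per pairwise comparison and direction with the largest log2 fold change in a called record of at least 5 CPM without overlap, the 3 smallest p-values per direction for the interaction and the 3 smallest per comparison for usage. CG31999, asRNA:CR44027, asRNA:CR43425, CR33797 and mir-9385 were named after their values were seen, and position within genes was examined after the data were seen. Values of 1 listed gene are not reported here. Alternatives covered scaling by RLE or library totals, no filter, distinct coordinates, the quasi-likelihood and DESeq2 tests, an FDR under 0.05, a minimum fold of 1 on the log2 scale, gene-level sums, the replicate block and leaving out each library.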

Additional observations from a re-analysis of the deposited data

Results flagged for a closer look

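In 9 of the 96 groups of values examined, 1 library stood far from the others of its group, where chance gives such a library in about 5% of groups. Of these, 6 were the same library, replicate 2 of female TRAP. In this library CG11360 (chr4:684581-687565) stood at 92.2 RPM against 25.3 to 27.1 RPM in the other female TRAP libraries. The sv record (chr4:1111288-1113317) stood at 24.4 RPM against 5.90 to 7.62 RPM. The antisense transcript asRNA:CR44029 (chr4:881471-883402) stood at 14.1 RPM against 5.04 to 5.58 RPM, and its enrichment in females was 1.85 with and 1.36 without the library. The Polycomb-recruiting gene pho (chr4:1174159-1174928) stood at 6.90 RPM against 3.17 to 3.52 RPM. CG32006 stood at 3.22 RPM against 0.852 to 1.25 RPM over chr4:152984-153538 and at 2.55 RPM against 0.617 to 0.726 RPM over chr4:152439-152921. The summed level of neuronal markers was also highest in this library, at 1737 RPM, with the lowest female TRAP library at 1017 RPM, and its part in these values was not tested.

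In male total mRNA, replicate 6 stood apart for CG33521 (chr4:1192357-1192694), at 34.4 RPM against 22.8 to 25.9 RPM, and for dati (chr4:375640-376631), at 7.55 RPM against 8.78 to 9.01 RPM. In female total mRNA, replicate 3 stood at 0.314 RPM for CG32006 (chr4:152439-152921) against 0.105 to 0.131 RPM, all within a few counts of the floor of detection.

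By a test of the difference itself, TRAP enrichment was called higher in males for 267 of 370 members tested (72.2%) and lower for 17 (4.59%). Over all records tested these shares were 47.5% and 14.9%, and the median log2 difference was 0.44. The members called higher were 97 with RLE scaling and 152 without male replicate 1. Members with the 3 smallest p-values in each direction are given here, with no allowance for the median over all records. Enrichment was larger in males for eIF4G1 by 1.13, for CaMKII by 1.01 and for dati by 0.77 on the log2 scale. It was smaller in males for Rad23 (-0.91), for CG32006 (-3.28, and -2.44 without female replicate 2) and for pho (-1.09, and -0.73 without female replicate 2).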

How the results depend on the processing

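No median over the members and no named record changed sign in the alternatives run. The balance of members higher and lower did turn between the sexes with a minimum fold of 1 on the log2 scale. It went from 42 and 161 to 11 and 4 in total mRNA, and from 20 and 55 to 1 and 0 in TRAP. Some role lists also turned with other scaling, among them the transcription factor and chromatin list between the sexes in total mRNA. DNA repair turned in male TRAP, both given above, and in the sex difference (from 5 higher and 3 lower to 0 and 3 with RLE or library totals). In all, 329 of 380 values that answer a comparison stayed within their limits. Without a filter 512 of 791 members tested were higher in male TRAP than total mRNA (64.7%, against 29.5% of all records). Another 34 were lower (4.3%, against 29.1%). In female TRAP 406 of 786 were higher (51.7%, against 24.6%) and 20 lower (2.54%, against 16.1%). In males against females in total mRNA 100 of 775 were higher (12.9%, against 35%) and 308 lower (39.7%, against 22.5%). The median there was -0.47 relative to all records. In male against female TRAP 35 of 796 were higher (4.4%, against 22%). For the sex difference in enrichment 32 of 798 were lower (4.01%, against 9.97%). With a minimum fold of 1 on the log2 scale the corresponding pairs were 138 and 0 in male TRAP, 50 and 0 in female TRAP, 11 and 4 between the sexes in total mRNA, 1 and 0 between the sexes in TRAP, and 51 and 7 for the sex difference in enrichment, and 21 of the named records lost their call. At an FDR under 0.05 the sexes differed in TRAP for 12 members higher and 16 lower, 7 were lower in the sex difference, and exon usage changed in 12 genes in female TRAP and 0 between the sexes in TRAP. Counts with the minimum fold and at an FDR under 0.05 have no share over all records beside them. DESeq2 called 110 members lower in male TRAP. Scaling by library totals gave a median of -0.49 between the sexes in total mRNA and, for the sex difference in enrichment, 116 higher with a median of 0.33, RLE scaling gave 97 higher with a median of 0.26, and a filter over all 18 libraries 168 higher. These counts for the sex difference were 31.4%, 26.2% and 55.4% of members tested, against 20.8%, 16.7% and 37.7% of all records.

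Leaving out 1 library at a time moved the members lower in female TRAP from 8 to 16 (16 without TRAP replicate 2), those higher in male than female TRAP from 18 to 34 and those lower from 26 to 80. The median between the sexes in total mRNA ranged from -0.67 to -0.24 and relative to all records from -0.62 to -0.22, the most negative values coming without a female library (-0.50, -0.52, -0.58 and -0.62 relative without replicates 2, 3, 4 and 5). The members with a larger enrichment in males ranged from 152 to 289 with medians of 0.33 to 0.71, lowest without male replicate 1. Exon usage between the sexes in TRAP ranged from 0 genes (without male replicate 5, female replicate 4 or 5) to 3 (without male replicate 1 or 3), and was 2 without female replicate 2.

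With the replicate block, 251 members were higher and 14 lower in male TRAP, 240 and 13 in female TRAP, and 285 and 20 in the sex difference. Without it these pairs were 250 and 12, 242 and 10, and 267 and 17. The shares of members with the block were 87.5% and 4.88%, 73.8% and 4%, and 77% and 5.41%. Over all records they were 41% and 42.5%, 36.1% and 34.8%, and 51.3% and 16.6%. The paired fits thus changed some calls but moved no count past its limit. Between the sexes, which share only the numbers 2, 3 and 5, the block gave 28 higher and 61 lower in TRAP and 36 and 161 in total mRNA, with same-number correlations of 0.18, 0.28 and 0.04 and of -0.04, -0.45 and 0.21. These counts were 8.12% and 17.7% of members in TRAP, against 25.4% and 20% of all records. In total mRNA they were 12.9% and 57.7%, against 36.3% and 35.4%. The filter at 2 CPM left 459 of 813 members out of every pairwise comparison, and some of these entered the test of the sex difference in enrichment.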
